A study of Rattus norvegicus with 72 samples.

Results

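Expression in the central nucleus of the amygdala (CeA) was compared between ZT9 and ZT3, 9 and 3 hours after lights on. The comparison holds 19 of the 72 samples of the series: 12 CeA samples from ZT9 and 7 from ZT3, chosen by region and time point from the sample labels and matched to the columns of the normalized table by animal number. Every animal was a male Sprague Dawley rat that had never received alcohol and had undergone no treatment. All were kept on an alcohol-free Lieber-DeCarli liquid diet in restricted amounts, set by what paired alcohol-fed rats had eaten, so that both time points carry calorie restriction and neither is an ad libitum baseline. Each sample was the bilateral CeA punch of 1 animal, and each animal was killed at 1 time point. The dorsal vagal complex (DVC) of the same animals and the 14 CeA samples of ZT5 served for comparison only.

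The CeA is an output nucleus of the amygdala. Most of its neurons release GABA, and they project to hypothalamic and brainstem centers that drive autonomic responses, feeding, fear and the response to stress. Opioid, corticotropin-releasing hormone and angiotensin receptors act there through G proteins, kinases and transcription factors. In rats, which are nocturnal, both time points fall within the light phase, when the animals mostly rest and the master clock of the suprachiasmatic nucleus signals day.

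Gene expression was measured by microfluidic quantitative RT-PCR and is given as the normalized threshold cycle (C_T), a log2 scale on which a lower C_T stands for higher expression. Differences are given as the ZT3 mean C_T minus the ZT9 mean C_T, so that positive values stand for higher expression at ZT9. Values of different genes come from different assays and are not set against each other. Of the 145 genes on the panel, 143 had values in at least 2 samples of each time point. Agtr2 and Slc6a2 did not, and no core clock gene was on the panel (0 of 12 sought).

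At the median over genes, expression differences between ZT3 and ZT9 in the CeA were small relative to the spread among animals. Leading genes such as Agtrap and Oprm1 differed by more than their SD. The mean of Agtrap, Adrbk1, Elk1, Slc35b2 and Crebbp lay higher at ZT9, and the mean of Oprm1, Junb, Snx10, Pak1, Gad1 and Rasa2 lay lower, each with an unadjusted p at or below 0.05. By limma with Benjamini-Hochberg adjustment over all genes, 0 of 143 genes (0%) passed an adjusted p of 0.05. The 11 genes named above make up 7.69% of those tested, 5 of them higher (3.5%) and 6 lower (4.2%) at ZT9. Exact two-sided permutation tests over the samples placed 10 genes (6.99%) at an unadjusted p of 0.05 or less, all among those 11, and 0 after adjustment, with a smallest adjusted p of 0.108. The methods' two-tailed test of each gene on the same values, with no shared estimate of the spread, gave 10 genes before adjustment and 0 after it. In 0 genes (0%) were the time points fully separated. The median size of the difference was 0.200 cycles, against a median SD among animals of 0.395 cycles at ZT3 and 0.565 at ZT9. The median standard error of the difference was 0.251 cycles. The difference exceeded 0.5 cycles in 16 genes, 8 in each direction, and the 95% confidence interval lay within 1 cycle of zero for 111 of 143 genes.

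**Figure D1:**
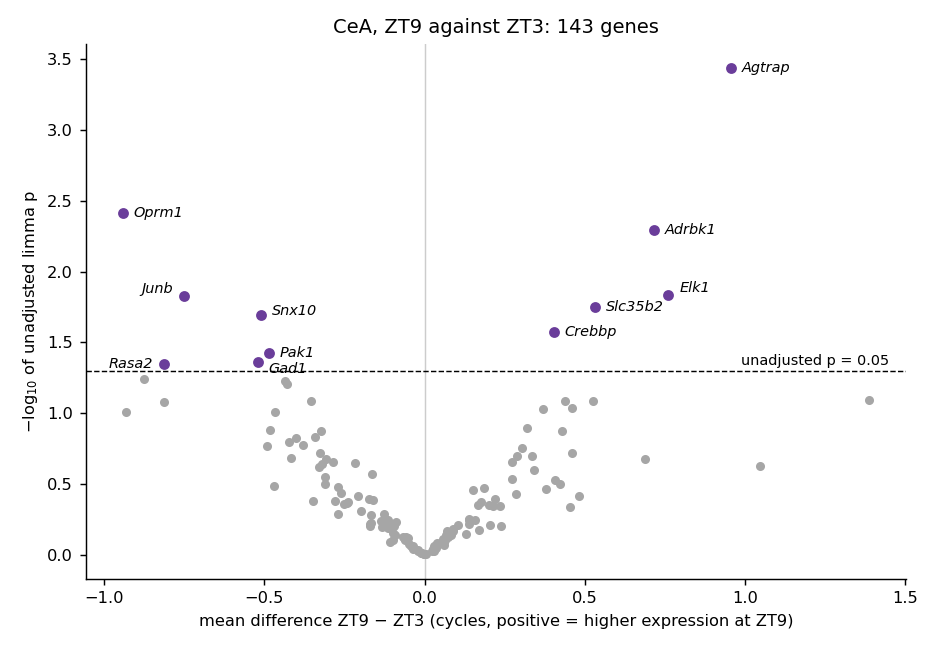
Mean difference between ZT9 and ZT3 in the CeA (horizontal axis, cycles) against −log10 of the unadjusted limma p (vertical axis) for 143 genes; the dashed line marks p = 0.05. The 11 named genes lie above the line, and Agtrap stands highest at 0.96 cycles.

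Some features of the samples run alongside these results. Each rat carries a number in the labels. Of the ZT9 animals, 7 had numbers below those of all 7 ZT3 animals (lower-numbered) and 5 had numbers in the ZT3 range (higher-numbered), and what the numbers mark is not given in the labels. For this reason the differences of most named genes are also given for the higher-numbered animals alone, 5 at ZT9 and 7 at ZT3. ZT9 replicate 10 had no value for 74 genes, whereas the other 18 samples each lacked between 1 and 9. Without replicate 10 the 11 genes were the same. Agtrap had no value in replicate 10, so its difference of 0.96 cycles did not change. Its limma adjusted p became 0.049, because the spread estimate and the adjustment are shared with the other genes. The median C_T before normalization was 19.6 ± 0.83 cycles at ZT3 (SD, n = 7) and 20.1 ± 0.85 at ZT9 (SD, n = 12). In bulk tissue, fewer cells of a type and less RNA per cell cannot be told apart.

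Genes typical of the tissue and of its surroundings were examined in the punches. The GABA neuron genes Gad1 and Slc32a1 were measured in 18 and 17 of the 19 samples. Their mean C_T at ZT3 was 17.47 and 24.50 in the CeA and 17.70 and 24.50 in the DVC. Their detection therefore does not identify the CeA. Slc6a2, the noradrenaline transporter, gave no value in any of the 19 CeA samples but was measured in all 22 DVC samples of the same time points. Rgs9, Scn4b and Rasgrp1, genes abundant in the neighboring striatum, differed by between −0.17 and 0.38 cycles from ZT3 to ZT9, with 0 of 3 at an unadjusted p of 0.05. In the higher-numbered animals all 3 had lower means at ZT9, with a median of −0.37 cycles (−0.11 over all animals), and Scn4b was at −0.35 instead of 0.38. Clu, which astrocytes express strongly, held the lowest C_T of its sample in 4 of 19 samples, so that its values are set by rank and its difference of −0.13 cycles is not informative. The contribution of cell composition to the differences below was not tested.

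The angiotensin system held the gene with the smallest p. Agtrap encodes a protein that binds the type 1 angiotensin II receptor and promotes its removal from the cell surface. It was measured with these primers, shown because the comparison turns on this assay, and the gene lies at chr5:163790565-163802174 in GRCr8.
Agtrap forward primer: ccatcttcagcttgctgct
Agtrap reverse primer: cctgagaaggtccgaagaaa

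Agtrap C_T ran from 22.25 to 23.07 at ZT3, with a median of 22.46. At ZT9 it ran from 20.85 to 22.53, with a median of 21.53. In 10 of the 11 measured ZT9 samples the C_T was lower, and expression thus higher, than in any ZT3 sample, and 1 ZT9 sample lay inside the ZT3 range. The means were 22.53 ± 0.31 (SD, n = 7) and 21.57 ± 0.52 (SD, n = 11), a difference of 0.96 cycles or 1.94-fold (95% CI 0.49 to 1.42, limma p = 0.000366, adjusted p = 0.0523, exact permutation p = 0.000754). Among the higher-numbered animals the difference was 0.80 cycles (95% CI 0.24 to 1.36, limma p = 0.00839). The ZT5 mean of 21.86 ± 0.48 (SD, n = 13) fell between them. The difference was 0.63 cycles with median centring within each assay set and 0.23 without normalization, against a median of all genes of −0.08 and −0.50 under those settings. The adjusted p passed 0.05 without ZT9 replicate 5, 10, 11 or 13 and was lowest, at 0.00898, without replicate 13. Replicate 10 holds no Agtrap value, so leaving it out changed the adjusted p through the other genes only.

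The remaining angiotensin genes varied more between animals. Ren1, which encodes renin, the protease that starts the angiotensin cascade, had a mean C_T of 23.55 ± 0.63 at ZT3 (SD, n = 7) and 24.42 ± 1.17 at ZT9 (SD, n = 11). This difference of −0.88 cycles had a 95% CI of −1.78 to 0.03 and a limma adjusted p of 0.610, and it was −0.56 in the higher-numbered animals. Ace, the angiotensin-converting enzyme, differed by 0.46 cycles (adjusted p = 0.744), and by 0.05 in the higher-numbered animals. Over the 4 genes tested, 1 reached an unadjusted p of 0.05, and the median difference was 0.44 cycles beside −0.02 over all 143 genes.

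Among receptors for opioids and stress peptides, the mu opioid receptor gene Oprm1 showed the largest difference. The mu receptor binds enkephalin and endorphin and inhibits neurons through Gi/o proteins. The gene spans chr1:45565371-45818722 in GRCr8 and was amplified with the following primers.
Oprm1 forward primer: acgtctgcaactggatcctc
Oprm1 reverse primer: aacgtgagggtgcaatctatg

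Oprm1 C_T ran from 23.86 to 25.47 at ZT3, with a median of 24.79. At ZT9 it ran from 24.49 to 27.12, with a median of 25.60. Expression was lower than the ZT3 mean in 11 of 12 ZT9 samples and lower than in every ZT3 sample in 6 of them, so that the groups overlapped. The mean C_T was 24.67 ± 0.54 at ZT3 (SD, n = 7) and 25.61 ± 0.70 at ZT9 (SD, n = 12). The difference was −0.94 cycles, or 1.92-fold (95% CI −1.55 to −0.34, limma p = 0.00384, adjusted p = 0.243, exact permutation p = 0.00601). It was as large in the higher-numbered animals, at −1.01 cycles (95% CI −1.66 to −0.37, limma p = 0.00427). The ZT5 mean of 25.26 ± 0.99 (SD, n = 13) lay between the others. One ZT9 sample had its highest C_T in Oprm1 and therefore received 27.12, the top value that quantile normalization gives in each of the 19 samples. Leaving out any 1 sample kept the difference between −1.08 and −0.80 cycles.

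The corticotropin-releasing hormone genes did not pass the test. Crhr1, the main receptor for this stress peptide, differed by −0.27 cycles (95% CI −1.12 to 0.58) and Crhr2 by 0.69 cycles (95% CI −0.42 to 1.80), the latter measured in 8 of 12 ZT9 samples. In the higher-numbered animals they were at −0.66 and 0.39 cycles. Crhr2 held the top value of 27.12 in 5 of the 15 samples that measured it, where its rank alone sets the value. Crhbp, which encodes a protein that binds the peptide and limits its action, differed by −0.42 cycles (95% CI −1.09 to 0.25). Their limma adjusted p values were 0.928, 0.744 and 0.744. With Cckbr, a cholecystokinin receptor gene, 1 of 5 genes of this group reached an unadjusted p of 0.05, and the median difference was −0.27 cycles.

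Downstream of such receptors, Adrbk1 encodes G protein-coupled receptor kinase GRK2, which phosphorylates activated receptors so that arrestins bind and signaling stops. The gene lies at chr1:211010259-211031013 in GRCr8, where RefSeq lists it as Grk2.
Adrbk1 forward primer: aagaagatcctgctgccaga
Adrbk1 reverse primer: ccggaaaagcaggtatccta

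Adrbk1 C_T ran from 19.59 to 20.94 at ZT3, with a median of 20.17. At ZT9 it ran from 18.84 to 20.34, with a median of 19.45. Expression was above the ZT3 mean in 10 of 11 ZT9 samples and above every ZT3 sample in 6, with overlap in the rest. The means were 20.21 ± 0.49 (SD, n = 7) and 19.50 ± 0.45 (SD, n = 11), which gave 0.71 cycles or 1.64-fold (95% CI 0.24 to 1.19, limma p = 0.00510, adjusted p = 0.243, exact permutation p = 0.00622). In the higher-numbered animals alone it was 0.37 cycles (95% CI −0.17 to 0.91). The lower-numbered ZT9 animals averaged 19.21 ± 0.31 (SD, n = 6) and the higher-numbered ones 19.84 ± 0.33 (SD, n = 5). ZT5 had the highest Adrbk1 expression, with a mean C_T of 19.49 ± 0.41 (SD, n = 13) that differed from ZT9 by less than the spread. The arrestin genes Arrb1 and Arrb2 and the related kinase gene Gprk6 lay between −0.09 and 0.27 cycles. One of these 4 kinase and arrestin genes reached an unadjusted p of 0.05, and the median difference was 0.21 cycles.

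**Figure D2:**
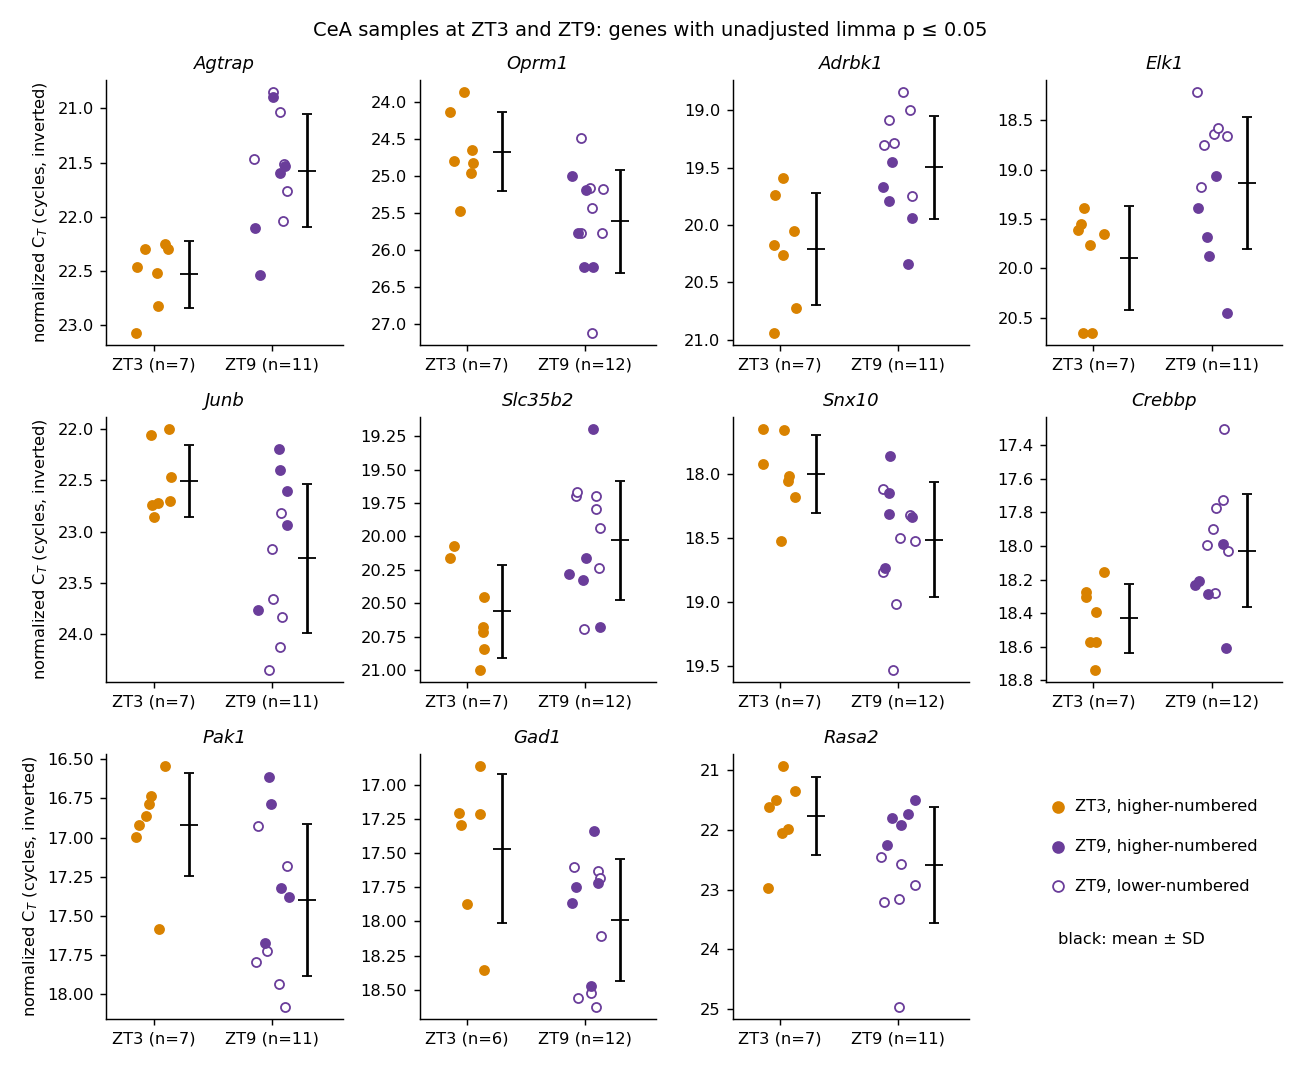
Normalized C_T (vertical axes in cycles, inverted so that higher expression is upward) of every measured CeA sample at ZT3 (orange) and ZT9 (purple) for the 11 genes with an unadjusted limma p of 0.05 or less; open circles are lower-numbered animals, and black marks give the mean ± SD. The time points overlap in each panel, least in Agtrap, where 1 of 11 ZT9 samples lies inside the ZT3 range.

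Transcription factors and coactivators held 3 of the 11 genes. Elk1 encodes an ETS-domain factor phosphorylated by MAP kinases. Its C_T was 19.39 to 20.65 at ZT3 (median 19.65) and 18.21 to 20.46 at ZT9 (median 19.07), and in 7 of 11 ZT9 samples expression exceeded every ZT3 sample. The difference of 0.76 cycles (95% CI 0.17 to 1.36, limma adjusted p = 0.413) became 0.20 cycles in the higher-numbered animals (95% CI −0.42 to 0.82). Crebbp, a histone acetyltransferase that serves as coactivator of CREB, ran from 18.15 to 18.74 at ZT3 (median 18.39) and from 17.30 to 18.61 at ZT9 (median 18.01). Its difference was 0.40 cycles (95% CI 0.05 to 0.75, limma adjusted p = 0.475), 0.17 in the higher-numbered animals and −0.07 without normalization, where the median of all genes was −0.50. Creb1 itself, measured in 5 ZT3 and 11 ZT9 samples, differed by 0.53 cycles (95% CI −0.07 to 1.13, limma adjusted p = 0.610). Its C_T ran from 24.22 to 26.24, near the top of each sample, where rank sets the value. Elk1 and Crebbp were the 2 of 7 genes in their group with an unadjusted p of 0.05, and its median difference was 0.14 cycles.

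Junb, an immediate early gene and AP-1 component, lay the other way. Its C_T was 22.00 to 22.86 at ZT3 (median 22.70) and 22.19 to 24.34 at ZT9 (median 23.16), and expression in 7 of 11 ZT9 samples was below every ZT3 sample. The difference was −0.75 cycles (95% CI −1.34 to −0.16, limma adjusted p = 0.413) over all animals and −0.27 in the higher-numbered ones. Egr1, another activity-regulated factor, differed by −0.31 cycles (95% CI −0.94 to 0.32), and by −0.08 in the higher-numbered animals. Fosl1 was measured in 2 ZT3 and 4 ZT9 samples, and its difference of 1.05 cycles had a 95% CI of −0.80 to 2.89. Of the 6 immediate early genes, 3 had higher and 3 had lower means at ZT9, with a median of −0.04 cycles.

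GABA and glutamate genes gave 1 of the 11. Gad1 encodes the enzyme that makes GABA, and its C_T ran from 16.86 to 18.35 at ZT3 (median 17.26, n = 6) and from 17.34 to 18.62 at ZT9 (median 17.81, n = 12). Expression was below the ZT3 mean in 11 of 12 ZT9 samples. The difference was −0.52 cycles (95% CI −1.02 to −0.02, limma adjusted p = 0.585), and −0.36 in the higher-numbered animals. Slc32a1, the vesicular GABA transporter, differed by −0.32 cycles (adjusted p = 0.710), and by −0.08 in the higher-numbered animals. Slc6a12, which carries GABA and betaine, was measured in 4 samples of each time point and differed by 0.48 cycles (adjusted p = 0.863), or 0.74 in the higher-numbered animals. Its highest C_T at each time point was 27.12, the top value of the normalization. The median of the 4 genes of GABA synthesis and transport was −0.13 cycles, with 1 of 4 at an unadjusted p of 0.05.

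Of 9 GABA-A receptor subunit genes, 0 reached an unadjusted p of 0.05, with 5 means higher and 4 lower at ZT9. The alpha3 subunit gene Gabra3 was at −0.31 cycles (95% CI −0.89 to 0.27), and at −0.67 in the higher-numbered animals. Of 9 ionotropic glutamate receptor genes, 0 reached it, with a median of −0.09 cycles. The AMPA receptor subunit gene Gria2 differed by −0.44 cycles (95% CI −0.89 to 0.02) and was at −0.07 in the higher-numbered animals. The NMDA receptor subunit gene Grin2b differed by 0.44 cycles (95% CI −0.06 to 0.94) and was at 0.06 there. Grm5, a metabotropic glutamate receptor gene, differed by −0.24 cycles (95% CI −0.85 to 0.37), and by −0.70 in the higher-numbered animals.

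The Ras, Raf and MAP kinase cascade carries signals from receptors to the nucleus. Of its 15 genes, 11 had lower means at ZT9 (76 of 143 over all genes), with a median of −0.20 cycles. Of the 15, 1 reached an unadjusted limma p of 0.05 (7.69% over all genes). That gene, Rasa2, encodes a GTPase-activating protein that turns Ras off. It ran from 20.94 to 22.97 at ZT3 (median 21.62) and from 21.51 to 24.96 at ZT9 (median 22.46). The difference was −0.81 cycles (95% CI −1.61 to −0.02, limma adjusted p = 0.585, exact permutation p = 0.0626), but −0.07 in the higher-numbered animals. In those animals 10 of the 15 cascade genes had higher means at ZT9, and the median was 0.05 cycles. Rasa1, a relative of Rasa2, differed by −0.43 cycles (−0.11 in the higher-numbered animals), and the MAP kinase phosphatase gene Dusp6 by 0.37 cycles (0.61 there).

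Pak1, a kinase activated by Rac and Cdc42 that acts on the cytoskeleton, ran from 16.54 to 17.59 at ZT3 (median 16.86) and from 16.61 to 18.09 at ZT9 (median 17.38). The difference was −0.49 cycles (95% CI −0.94 to −0.03, limma adjusted p = 0.585), and −0.24 in the higher-numbered animals. It was the 1 gene of 4 p21-activated and focal adhesion kinases at an unadjusted p of 0.05, and their median was −0.10 cycles. Further groups with 0 genes at an unadjusted p of 0.05 were the 9 protein kinase C genes (median 0.04 cycles), the 8 genes of G protein, phospholipase C and calcium release (0.07), the 5 of PI3 kinase, Akt and mTOR (−0.01), the 7 protein phosphatases (−0.10), the 6 ion channels (−0.10) and the 6 genes of DNA methylation, repair and telomeres (0.06).

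Transport and metabolic genes contributed the last pair. Slc35b2, which carries the sulfate donor PAPS into the Golgi, ran from 20.07 to 20.998 at ZT3 (median 20.68) and from 19.20 to 20.70 at ZT9 (median 20.05). It differed by 0.53 cycles (95% CI 0.10 to 0.96, limma adjusted p = 0.413), by 0.43 in the higher-numbered animals and by −0.14 without normalization. Snx10, a sorting nexin of endosomes, ran from 17.65 to 18.53 at ZT3 (median 18.02) and from 17.86 to 19.53 at ZT9 (median 18.42). It differed by −0.51 cycles (95% CI −0.93 to −0.09, limma adjusted p = 0.413), and by −0.27 in the higher-numbered animals. Beyond the threshold was Pex7, a peroxisomal import receptor gene, at 0.46 cycles (limma adjusted p = 0.610), or 0.29 in the higher-numbered animals. The 11 genes of metabolism and protein folding had a median of 0.15 cycles with 1 at an unadjusted p of 0.05, and the 9 vesicle, trafficking and synaptic genes a median of 0.06 cycles with 1.

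**Figure D3:**
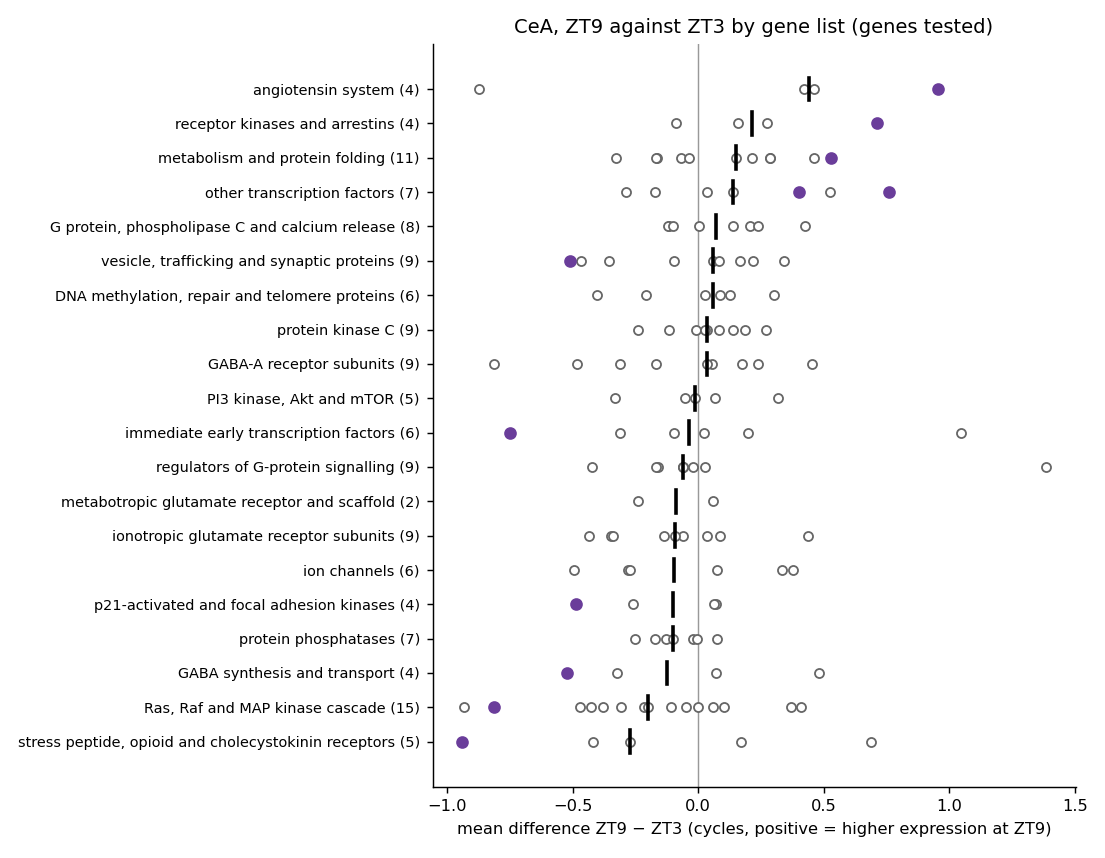
Mean difference between ZT9 and ZT3 in the CeA (horizontal axis, cycles) for each gene of 20 functional groups (rows, with the number of genes tested); filled points have an unadjusted limma p of 0.05 or less, open points do not, and black bars are group medians. Filled points are scattered over 10 groups, with no group holding more than 2.

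Animal number moved with several of these genes. At ZT9, 31 genes (21.8%) differed between the 7 lower-numbered and 5 higher-numbered CeA samples at an unadjusted limma p of 0.05, and 2 (1.41%) after adjustment. At ZT5, where 5 lower-numbered and 9 higher-numbered animals were available, the counts were 39 (27.5%) and 10 (7.04%). Both genes that passed at ZT9, Rgs4 among them, also passed at ZT5 and with the same direction.

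Rgs4 encodes a GTPase-activating protein that shortens G protein signals. Its C_T was 11.38 to 14.35 in the lower-numbered and 14.74 to 16.57 in the higher-numbered ZT9 animals. The value of 11.38 is the lowest that normalization gives in any sample. Over all animals Rgs4 was 1.39 cycles higher in mean at ZT9 (95% CI −0.19 to 2.96, limma adjusted p = 0.610), the largest difference of the panel. In the higher-numbered animals it was −0.46 cycles (95% CI −1.56 to 0.63). Of the 9 genes of this family, 0 reached an unadjusted p of 0.05. Lower means at ZT9 were found in 7 (76 of 143 over all genes), and the median was −0.06 cycles. Lower-numbered animals exceeded higher-numbered ones in Rgs4 by 3.39 cycles at ZT9 (limma adjusted p = 0.00324) and by 3.30 at ZT5 (0.0165).

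The comparison among higher-numbered animals shares all 7 ZT3 samples and 5 ZT9 samples with that over all animals. Of the 11 genes with an unadjusted p of 0.05 over all animals, Agtrap and Oprm1 were the 2 that also reached it there, where 7 genes did (4.93%) and the smallest adjusted p was 0.397. For neither of them did lower- and higher-numbered animals differ at an unadjusted p of 0.05. The values for Agtrap were 0.29 cycles at ZT9 (95% CI −0.39 to 0.97) and −0.47 at ZT5 (95% CI −1.03 to 0.09). Those for Oprm1 were 0.12 (95% CI −0.70 to 0.94) and 0.68 (95% CI −0.41 to 1.77). For Rasa2 they were −1.37 at ZT9 (adjusted p = 0.0677) and −1.21 at ZT5 (adjusted p = 0.0142), and for Elk1 1.03 (adjusted p = 0.0677) and 0.54 (adjusted p = 0.125).

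**Figure D4:**
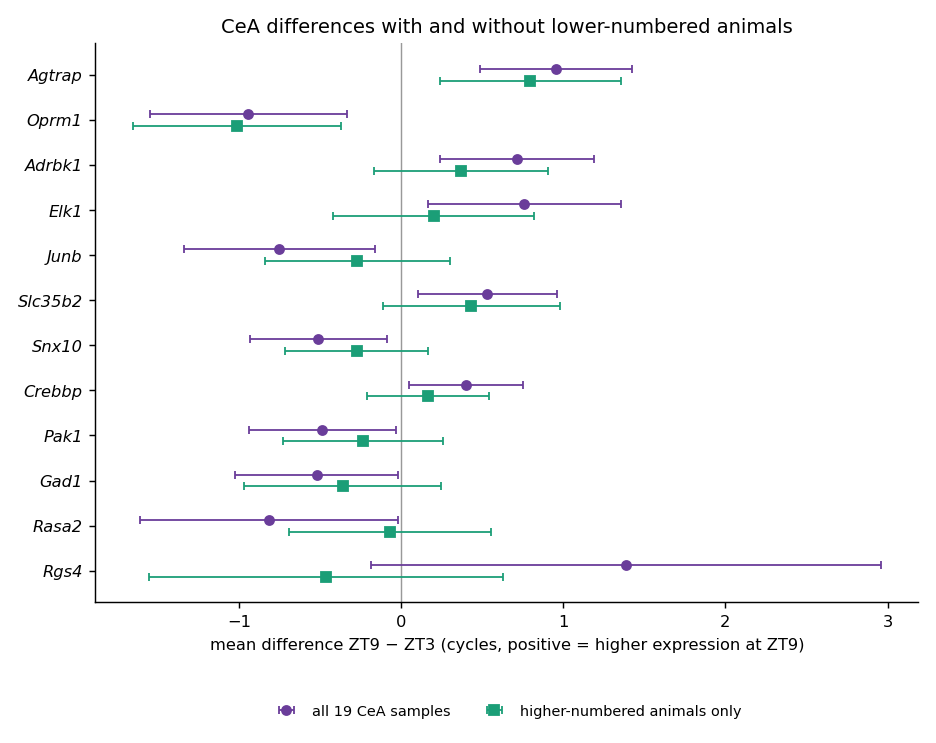
Mean difference between ZT9 and ZT3 in the CeA (horizontal axis, cycles) with 95% confidence intervals, over all 19 samples (circles) and over the higher-numbered animals alone (squares), for the 11 genes and for Rgs4. Agtrap and Oprm1 keep intervals that exclude zero, whereas Rgs4 changes sign.

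The ZT5 mean lay between the ZT3 and ZT9 means for 6 of the 11 genes, above both for 3 and below both for 2. Over all 143 genes it lay between for 45, was the highest expression for 48 and the lowest for 50.

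Whether the difference between ZT9 and ZT3 in the CeA departed from that in the DVC was tested within the 19 animals that had both regions. By limma, 0 of 143 genes (0%) passed an adjusted p of 0.05, with a smallest adjusted p of 0.468, and 11 (7.69%) had an unadjusted p of 0.05 or less. These were Adrbk1, Ntrk2, Egr1, Agtrap, Sp1, Ren1, Gabrg1, Nrxn3, Oprm1, Pak1 and Rasgrf2.

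Over the animals with a value in both regions, the Adrbk1 difference between ZT9 and ZT3 was 0.71 cycles in the CeA and −0.18 in the DVC, a difference of 0.89 between regions (95% CI 0.29 to 1.49, limma p = 0.00545, adjusted p = 0.468). For Agtrap the values were 0.96 and −0.11, a difference of 1.06 (95% CI 0.25 to 1.88, limma adjusted p = 0.468). For Oprm1 they were −0.94 and −0.06, a difference of −0.88 (95% CI −1.69 to −0.08, limma adjusted p = 0.532). In the higher-numbered animals the region differences were 1.02, 1.34 and −0.69 cycles. There Adrbk1 was at 0.37 cycles in the CeA and −0.65 in the DVC, and Agtrap at 0.80 and −0.54.

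Ntrk2, which encodes the BDNF receptor TrkB, was at −0.32 cycles in the CeA and 0.68 in the DVC, a difference of −1.004 (95% CI −1.72 to −0.28), which was −0.32 among the higher-numbered animals. In the CeA, Ntrk2 C_T ran from 13.44 to 14.98, near the low end of each sample, where rank sets the value. Egr1 was at −0.31 in the CeA and 0.67 in the DVC, a difference of −0.98 (95% CI −1.71 to −0.25), and −1.24 among the higher-numbered animals. Sp1, a zinc finger factor of many promoters, differed between regions by −0.59 (95% CI −1.08 to −0.09) and Nrxn3, a presynaptic adhesion gene, by −0.86 (95% CI −1.64 to −0.08). In the DVC alone, 2 of 145 genes (1.38%) passed an adjusted p of 0.05, Fosl1 and Hprt, and 22 (15.2%) had an unadjusted p of 0.05 or less.

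**Figure D5:**
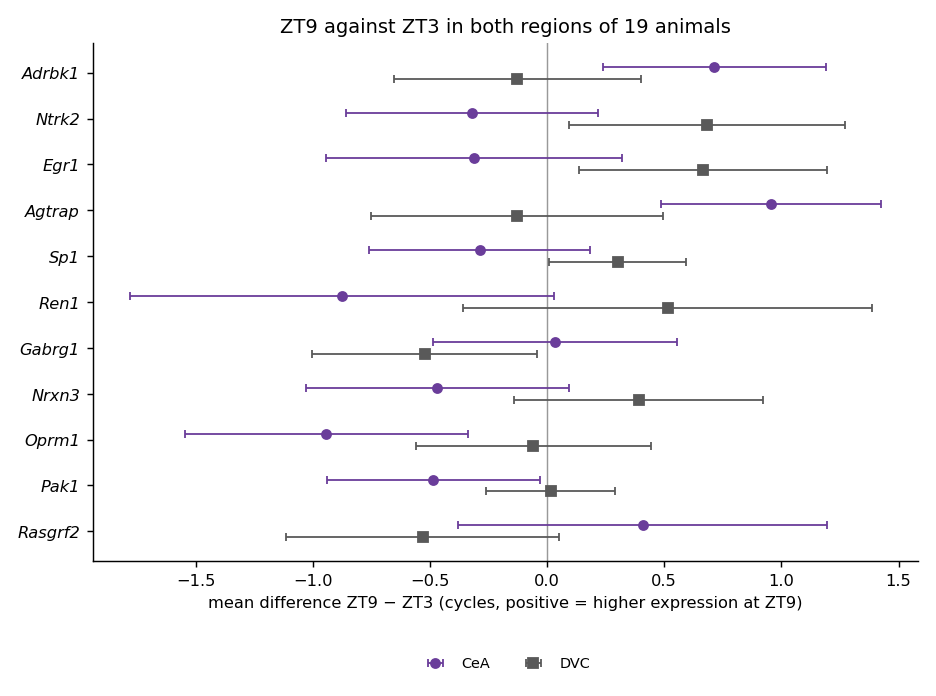
Mean difference between ZT9 and ZT3 (horizontal axis, cycles) with 95% confidence intervals in the CeA (circles) and in the DVC (squares) of the 19 animals, each region over its own measured samples, for the 11 genes with an unadjusted p of 0.05 or less in the test between regions. Agtrap stands at 0.96 cycles in the CeA and −0.13 in the DVC.

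The promoters of the 11 genes with an unadjusted p of 0.05 in the CeA were searched for letters bound by factors that respond to the clock or to activity. The window ran from 250 bases before to 50 after each RefSeq start in GRCr8, and sequences were at hand for all 11 and for 113 of the 145 panel genes. The E-box CACGTG, the site known for CLOCK and BMAL1, read on both strands, occurred in 3 of the 11 (Agtrap, Elk1 and Pak1), in 11 of the 113 panel promoters (9.73%) and in 6.65% of 27457 rat promoters. The CREB site TGACGTCA occurred in 1 of the 11, Pak1, in 1.77% of panel promoters and in 1.91% of all, and the motifs did not overlap. The promoter table places the starts of Elk1 and Pak1 inside the genes as annotated. The Elk1 stretch itself lies inside the gene and is not shown. For Agtrap and Pak1, stretches around the E-box that lie before the first base of the annotated gene are shown on the strand of the gene, with motifs in capitals. Agtrap is from chr5:163802202-163802327 (minus strand) and Pak1 from chr1:161522235-161522360 (plus strand).
Agtrap: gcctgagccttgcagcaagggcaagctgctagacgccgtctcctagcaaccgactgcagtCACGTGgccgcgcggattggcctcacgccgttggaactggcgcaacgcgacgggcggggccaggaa
Pak1: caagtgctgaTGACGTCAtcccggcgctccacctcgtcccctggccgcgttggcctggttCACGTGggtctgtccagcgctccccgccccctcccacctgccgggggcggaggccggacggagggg

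Counted from the promoter table's start, the first base of the E-box lay at position −93 in Agtrap, −75 in Elk1 and −155 in Pak1. Among these 3, the mean lay higher at ZT9 for Agtrap and Elk1 and lower for Pak1. A match of letters is a description and does not show that a factor binds there.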

How the data were processed

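Total RNA from bilateral CeA and DVC punches was assayed for 145 genes by pre-amplified microfluidic RT-PCR. RNA was extracted with either of 2 kits, and which sample received which is not given in the sources used here. The deposited values are C_T, a log2 scale, from which the authors discarded failed reactions and which they quantile-normalized over all 72 samples; repeating this normalization returned the deposited values within 4.99e-09 cycles. The deposited table of the authors' own mean differences was not used. Gene identifiers were matched to RefSeq GRCr8 (144 of 145 found, 16 under another symbol). No depth applies to C_T, and the number of animals limits the precision.

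Negated C_T was tested with limma 3.58.1 (lmFit and eBayes, two-sided, R 4.3.3) over genes that had 2 or more values at both ZT3 and ZT9, with Benjamini-Hochberg adjustment and a threshold of 0.05. Missing values were not imputed. Exact permutation tests ran over all splits of the measured samples (numpy 2.4.6). Regions were compared through within-animal differences. The scripts were tested on simulated data. Alternatives changed the samples, the covariates, the normalization, the gene filter and the test. The comparison of lower- with higher-numbered animals within a time point was added after the values were seen. Replicates are separate animals.

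The comparison, the gene groups and their tests were chosen with earlier results of these data known. Named genes were the 20 with the smallest limma p, the 5 largest mean differences in each direction among genes with 5 or more values at both times, up to 4 examples of each gene group and the 5 smallest p of the test between regions; Ace, Crhbp, Crhr1, Fosl1, Nrxn3, Slc32a1, Slc6a12, Dusp6, Gabra3 and Grm5 were kept for description after their values were seen. A few genes are not reported here. Group summaries are counts and medians without a test. Primer sequences came from the study's primer list and promoters from RefSeq.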

Additional observations from a re-analysis of the deposited data

Results flagged for a closer look

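Among 34 sets of values of one gene at one time point, 1 held a sample far from the others. Chance gives about 1 in 20, so this is no more than chance would give. In Grm5 at ZT3, replicate 7 had a C_T of 20.22, whereas the other 6 samples ran from 18.38 to 18.94. The gap was 0.695 of the whole range.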

How the results depend on the processing

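The count of genes at an adjusted limma p of 0.05 was 0 in the comparison as reported and 0 to 1 when single animals were left out. It was 1, Agtrap, after quantile normalization of each region alone, with only the genes measured in every sample other than ZT9 replicate 10, with the 128 genes of mean C_T at most 24, and with all CeA samples in 1 fit. The Agtrap difference of 0.96 cycles was 0.72 with median centring (adjusted p = 0.288), 0.63 with centring within each assay set (0.285) and 0.23 without normalization (0.678). The count at an unadjusted p, 11 as reported, was 8 to 18 when single animals were left out (18 without ZT9 replicate 11), 7 in the higher-numbered animals only and 6 when the animal group (lower or higher numbers) was a term of the fit. The replicate block, which treats equal replicate numbers as pairs, gave 5 genes at an adjusted p, among them Adrbk1, Elk1 and Rasa2, and 28 unadjusted, and Agtrap did not pass (adjusted p = 0.104). The numbers belong to different animals, and the 5 shared numbers correlated between −0.116 and 0.218, so that they do not pair the samples.

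For the test between regions, 0 genes passed adjustment under any alternative. Its unadjusted count of 11 was 6 to 14 when single animals were left out (7 without ZT3 replicate 2, 6 without ZT3 replicate 7), and 6 each in the higher-numbered animals only, with animal number as a covariate and with no normalization. The t-test count of 10 was 8 to 16 when single animals were left out (16 without ZT9 replicate 11) and 6 in the higher-numbered animals. After adjustment it was 0 to 1 (1 without ZT9 replicate 13) and 1 by Welch's variant.

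Of 1006 alternative values for 32 genes, 990 kept their direction. Without normalization the median difference of all genes moved from −0.02 to −0.50 cycles. Relative to that median all 11 genes at an unadjusted p kept their sign. Against zero, the differences of Ace (−0.21), Creb1 (−0.44), Crebbp (−0.0655), Crhr2 (−0.12), Dusp6 (−0.11), Grin2b (−0.17), Pex7 (−0.23) and Slc35b2 (−0.14) changed sign. So did Ntrk2 with median centring (0.0507), also within each assay set (0.0230), Crhr1 with median C_T as a covariate (0.0791) and Grm5 under the replicate block (0.0741). In the higher-numbered animals only, and with animal group as a term, Nrxn3 (0.0147) and Rgs4 (−0.46) changed sign. The causes were not tested. Values near the highest or lowest C_T of a sample are set by rank. Among other genes, this limits what Oprm1, Ren1, Rgs4, Clu, Crhr1, Crhr2, Slc6a12, Fosl1, Creb1 and Ntrk2 can show.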
